A study of Danio rerio with 23 samples.

Results

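The genes described here encode the translation initiation and elongation factors of zebrafish, measured as transcripts in the intestine of fed, starved and refed adults. They were chosen by name: every gene whose symbol begins with eif1, eif2, eif3, eif4, eif5, eif6, eef1 or eef2, in upper or lower case, apart from the eIF2 alpha kinases (eif2ak). The naming rule itself uses no measured value, but the part was chosen with earlier results of these data known. The rule gave 80 of the 34326 gene IDs in the count files, of which 26803 have a symbol. By role they were 57 initiation factors, 13 elongation factors, 5 inhibitors of the cap-binding factor eIF4E, 4 enzymes that modify elongation factors, and EEF1E1, a component of the aminoacyl-tRNA synthetase complex. The 57 initiation factors include the 5 genes of the eIF5, eIF5A, eIF5B and eIF6 group, since roles were assigned by symbol. Symbols are printed as the gene name table spells them, and a gene ID is added where 1 symbol covers more than 1 ID.

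Initiation brings the small ribosomal subunit, the initiator tRNA and the mRNA together. The trimeric factor eIF2 carries the initiator tRNA and is recharged with GTP by eIF2B, the large scaffold eIF3 binds the small subunit, and eIF4E, eIF4G and the helicase eIF4A form the eIF4F complex that recognises the mRNA cap. In elongation, eEF1A delivers each aminoacyl-tRNA, eEF1B (subunits alpha, delta and gamma) reloads eEF1A with GTP, and eEF2 moves the ribosome along by 1 codon. In mammals, mRNAs of elongation factors and ribosomal proteins carry a terminal oligopyrimidine tract, and their translation is tied to nutrient supply through the mTORC1 kinase complex. The intestinal epithelium renews itself continuously and is known as a tissue of high protein synthesis.

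Each library came from the whole intestine of a single fish, and all fish were siblings from 1 breeding pair. Starvation began at 60 days post fertilization (dpf), and the age on every label is 81 dpf, whatever the sampling day. Fed controls ate a standard diet throughout and were sampled at 3 and 21 days post-starvation (3dpS and 21dpS) and at 3 days post-refeeding (3dpR). Starved fish had no food for 3 days (3dpS) or 21 days (21dpS), and refed fish were starved for 21 days and then fed for 3 (3dpR). The 3dpS fed controls comprised 3 fish and each of the other 5 groups 4. Fed and starved fish lived in separate tanks, 2 of each kind, so diet and tank cannot be told apart, and p-values measure the spread between fish of those tanks.

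The total per library ran from 500205 to 1236436 reads assigned to genes, with 596487 as the median, and 10472 to 13303 genes were detected. A count of 3 reads, taken as the floor of detection, corresponded to 3.63 to 6.81 CPM (reads per 1000000, scaled by TMM factors over the 23 libraries). In replicate 2 of the 3dpS starved fish every count was even, whereas the 22 other libraries each held 6342 to 7756 genes with an odd count. Halving its counts gives a total of 618218 in place of 1236436, the next highest total being 712850. In the main pairwise comparisons that use this library, halving those counts changed no count of called factors. The factors called below for a diet effect that differed between 3dpR and 3dpS kept their calls too. Other fits were not rerun with halved counts, and the cause of the even counts was not tested. Enterocyte markers were present in every library (7 of 10 listed genes matched, none at 0, summed level 1078 to 2805 CPM). Exocrine pancreas markers (10 of 13 matched, none at 0) were present too, and replicate 1 of the 3dpS fed controls stood apart with 6523 CPM, against 596 and 799 CPM in the other fed fish and 1259 to 2923 CPM in the starved fish of that day. The same library held 31727 CPM of erythrocyte markers (3 of 6 matched, 1 of these at 0 throughout), the highest of the 23, against 2037 and 2478 CPM in the other fed fish and 4543 to 12466 CPM in the starved fish. In these bulk samples fewer cells of a type and less RNA per cell cannot be told apart.

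Of the 80 genes, 2 had no read (EEF1AKMT4 and EIF3B ENSDARG00000074213), 33 had 1 to 99 reads over all libraries and 45 had 100 or more. The low-count filter let 40 into at least 1 comparison and 29 into all 8 comparisons, and 40 were tested in none of these. The untested genes include the cap-binding protein EIF4E itself (43 reads in all), EIF6 (48 reads), EIF4A3 (47 reads) and eef1a2 (10 reads), so nothing is said of changes in them. Among the paralogues of eEF1A, eef1a1l1 held 10772 reads and each of the other 4 held 10 or fewer. Reads that fit more than 1 paralogue were not resolved here, which bears on the eef1a, eef2 and eif4a1 copies.

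EIF3D, an eIF3 subunit that binds the cap directly on some mRNAs in human cells, was listed with 62825 of the 118982 reads on all 80 genes (52.8%). The RefSeq table places the sulfotransferase gene sult3st1 (14520 reads) over the same stretch as EIF3D, and the strand option of the counting is not given in the sources used here. MT-ND6, the light-strand gene among the mitochondrial mRNAs, carried a mean of 16493 reads per library against 3915 for the next, MT-CO1. What part of the EIF3D count comes from EIF3D mRNA was therefore not resolved. The strand option is equally unknown for every other factor. Their levels here are counts per gene, and the part from sense mRNA was not resolved for them either. EIF2B4 (5358 reads, over atraid with 86) and EIF2B1 (3497 reads, over mob1a with 152 and vps33a with 223) lie over other genes as well, as do EEF1B2, eef2b and EIF3M. In all, 53 of the 80 genes matched 1 RefSeq gene each, and 13 of these overlap another protein-coding gene. Without EIF3D, the genes took 0.306% to 0.320% of the reads in 3dpS fed controls and 0.439% to 0.610% in 3dpS starved fish, and those ranges do not overlap. At 21dpS the ranges were 0.269% to 0.517% in fed and 0.383% to 0.464% in starved fish, and at 3dpR 0.253% to 0.435% in fed and 0.256% to 0.339% in refed fish.

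After 3 days without food 1 factor passed the test: eef1da, a delta subunit of eEF1B, rose 4.49-fold in starved intestines. The other 6 elongation factors tested had higher means in starved fish without passing it, by log2 differences of 0.44 to 2.20. Of the 38 factors tested 34 had a higher mean in starved fish, where 50.5% of all genes tested did. The call of eef1da stands against a background of 0.531% of genes called (21 of 3953), 0.253% higher.

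The levels of eef1da were 11.8, 12.9 and 16.0 CPM in the 3 fed fish and 49.6, 68.3, 61.7 and 62.6 CPM in the 4 starved fish. Every starved fish lay above every fed fish, and the fed values rest on only 7 to 10 reads per library. Those fed libraries alone would not have taken eef1da through the low-count filter, so its starved libraries were needed. The means were 60.5 ± 7.86 (SD, n = 4) and 13.6 ± 2.21 CPM (SD, n = 3), a log2 fold change of 2.17 (SE 0.32, edgeR adjusted p = 0.0208; exact permutation test p = 0.0286, two-sided and the smallest possible). Without fed replicate 2, fed replicate 3 or starved replicate 4 in turn the adjusted p was 0.107, 0.109 and 0.0624, with log2 fold changes of 2.12, 2.28 and 2.16.

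The gamma subunit EEF1G read 126, 73.3 and 89.8 CPM in fed fish and 284, 222, 201 and 328 CPM in starved fish. These groups did not overlap either, and the log2 difference of 1.44 (SE 0.29) narrowly missed the threshold (edgeR adjusted p = 0.0521). EEF1B2, the alpha subunit, was at 6.73, 4.31 and 3.21 CPM in fed fish, which is 2 to 4 reads each. In starved fish it was at 27.9, 17.4, 15.7 and 28.3 CPM (log2 difference 2.20, SE 0.50, edgeR adjusted p = 0.0692). The second delta gene, EEF1D, overlapped between the groups, with 12.8 to 37.0 CPM in fed and 29.1 to 49.2 CPM in starved fish (log2 difference 0.67, adjusted p = 0.453).

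The tRNA carrier eef1a1l1 was at 827, 412 and 456 CPM in fed fish and at 872, 869, 1262 and 1143 CPM in starved fish. Fed replicate 1 reached nearly the level of the lowest starved fish, and the log2 difference of 0.89 (SE 0.29) did not pass the test (adjusted p = 0.163). The translocase eef2b showed the same arrangement, with 166, 70.4 and 56.1 CPM in fed fish and 197, 185, 231 and 255 CPM in starved fish (log2 difference 1.17, SE 0.36, adjusted p = 0.154). The other tested eEF2 gene, EEF2 (175 reads in all), differed by 0.44. Fed replicate 1, the fish with the high pancreas and erythrocyte markers, was the fed fish closest to the starved ones for EEF1G, EEF1D, eef1a1l1 and eef2b. When it was left out, 7 factors were called: eef1da, EEF1G, EEF1B2, eef1a1l1, eef2b and the eIF3 subunits EIF3CL and eif3ea. The calls over all genes moved as well, to 116 of 4368 from 21 of 3953. Leaving out fed replicate 2, fed replicate 3 or starved replicate 4 left no factor called, and only 1, 2 and 1 of all genes. The part of the pancreas and erythrocyte markers in these differences was not tested.

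**Figure D1:**
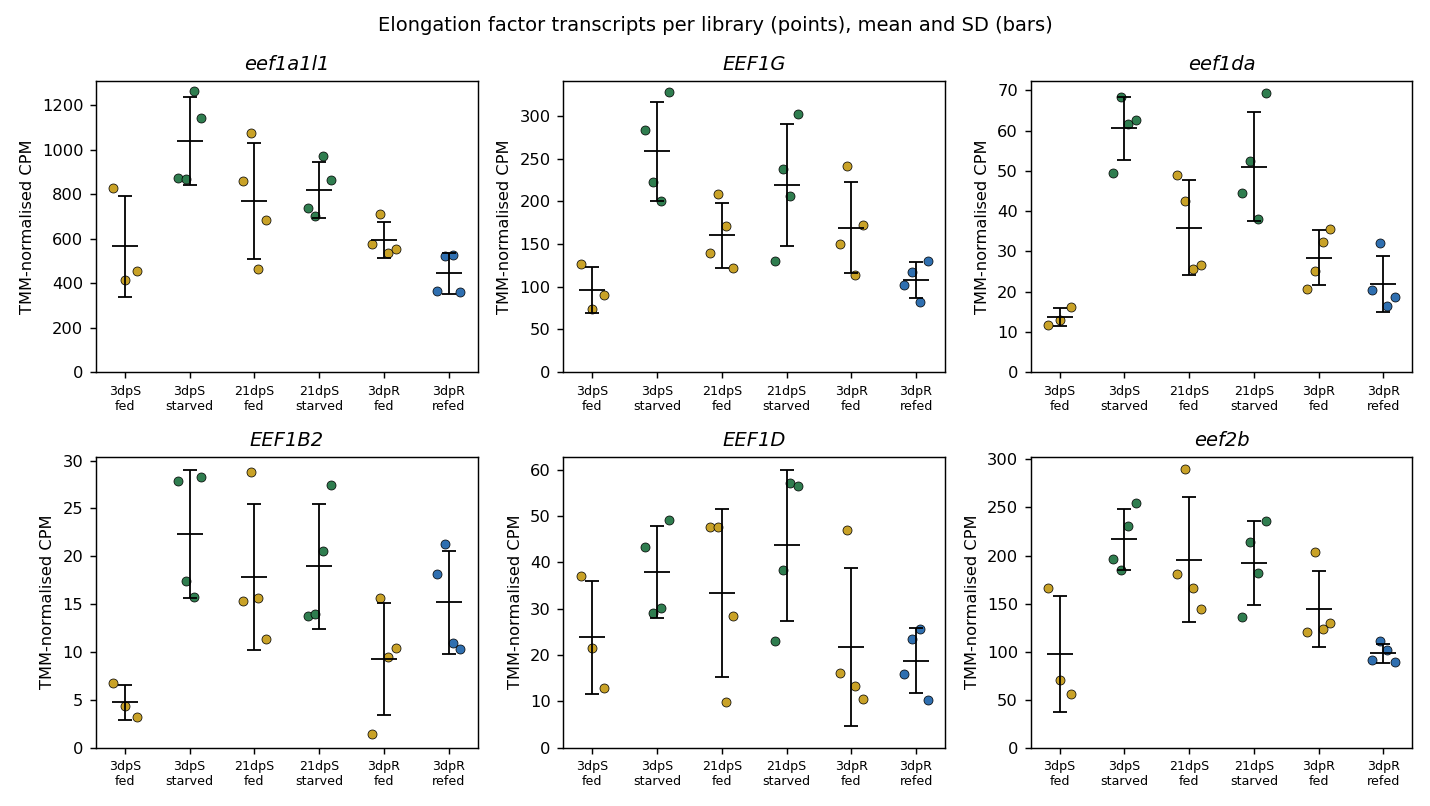
Level of 6 elongation factor transcripts (TMM-normalised CPM, linear axes from 0) in each of the 23 libraries, by group, with the group mean and SD as bars. At 3dpS the 4 starved fish lie above the 3 fed fish for eef1a1l1, EEF1G, eef1da, EEF1B2 and eef2b, whereas fed and starved fish overlap at 21dpS for all 6 genes.

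Among the initiation factors 28 were tested at 3dpS and 25 had a higher mean in starved fish, but none passed the test, with 12 at an unadjusted p under 0.05 (10 higher, 2 lower). Over all genes tested 15% had such a p, 7.89% higher and 7.06% lower. Of the eIF3 scaffold 10 of 11 tested subunits were higher, with a median log2 difference of 0.96. The core subunit gene eif3ea was at 11.8, 5.75 and 8.02 CPM in fed and 21.7, 30.5, 24.2 and 31.3 CPM in starved fish (log2 difference 1.68, SE 0.40, adjusted p = 0.0816). EIF3F was at 11.8, 11.5 and 9.62 CPM in fed and 31.0, 24.7, 33.9 and 28.3 CPM in starved fish (log2 difference 1.42, SE 0.36, adjusted p = 0.0888). Neither pair of groups overlapped, and both genes rest on 4 to 8 reads per fed library. The exception in eIF3 was the count listed for EIF3D, at 5809 ± 1163 CPM (SD, n = 3) in fed and 3360 ± 961 CPM (SD, n = 4) in starved fish (log2 difference -0.77, adjusted p = 0.165).

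EIF2S1 (ENSDARG00000052178), a gene for the alpha subunit of eIF2 that stress kinases phosphorylate, was at 20.2, 23 and 14.4 CPM in fed and 40.3, 45.0, 36.3 and 56.6 CPM in starved fish (log2 difference 1.22, SE 0.33, adjusted p = 0.103). Its paralogue ENSDARG00000005827 differed by 0.47 (adjusted p = 0.651), and its groups overlapped. EIF2S2, the beta subunit and the eIF2 gene with most reads, differed by 0.31 (420 ± 44.4 CPM, n = 3, and 515 ± 51.3 CPM, n = 4, each with SD; adjusted p = 0.542). The eIF2B subunits went 2 ways, EIF2B4 by 0.07 and EIF2B1 by -0.64 (adjusted p = 0.951 and 0.308). Of the eIF4F group 4 of 5 tested genes were higher, led by the helicase eif4a1a with a log2 difference of 1.23 and its cofactor EIF4B with 1.06 (adjusted p = 0.218 and 0.235). The cap-binding protein EIF4E3 was the lower one, by 0.66 (adjusted p = 0.437).

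The median log2 difference at 3dpS was 0.41 over the 28 initiation factors and 1.17 over the 7 elongation factors tested (range 0.44 to 2.20). Over all genes it was 0.01. Among factors not overlapping another protein-coding gene, or not matched, the median was 0.44 over 24 initiation and 0.89 over 5 elongation factors. The 4 overlapping initiation factors had a median of -0.29, with 2 higher and 2 lower. The difference between the 2 roles has no test of its own, since genes are not replicates. Part of these figures is set by the filter: EEF1B2, eif3ea, EIF3F, EIF3G, EIF3M and EIF4G2 entered only because their starved libraries were high enough. Of the 32 others 28 were higher in starved fish, with a median of 0.40. Those others are not free of the filter, since the called eef1da is among them and its fed libraries alone did not meet it. The genes whose groups did not overlap were 13 of 38, against 14.3% of all genes tested. The summed leukocyte markers (8 of 10 matched, 1 of these at 0 throughout) also separated the groups, with 254 to 299 CPM in fed and 316 to 372 CPM in starved fish. So did the goblet cell markers (3 of 4 matched, none at 0), at low levels of 6.73 to 14.4 CPM in fed and 14.5 to 16.9 CPM in starved fish. Their part in the result was not tested.

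**Figure D2:**
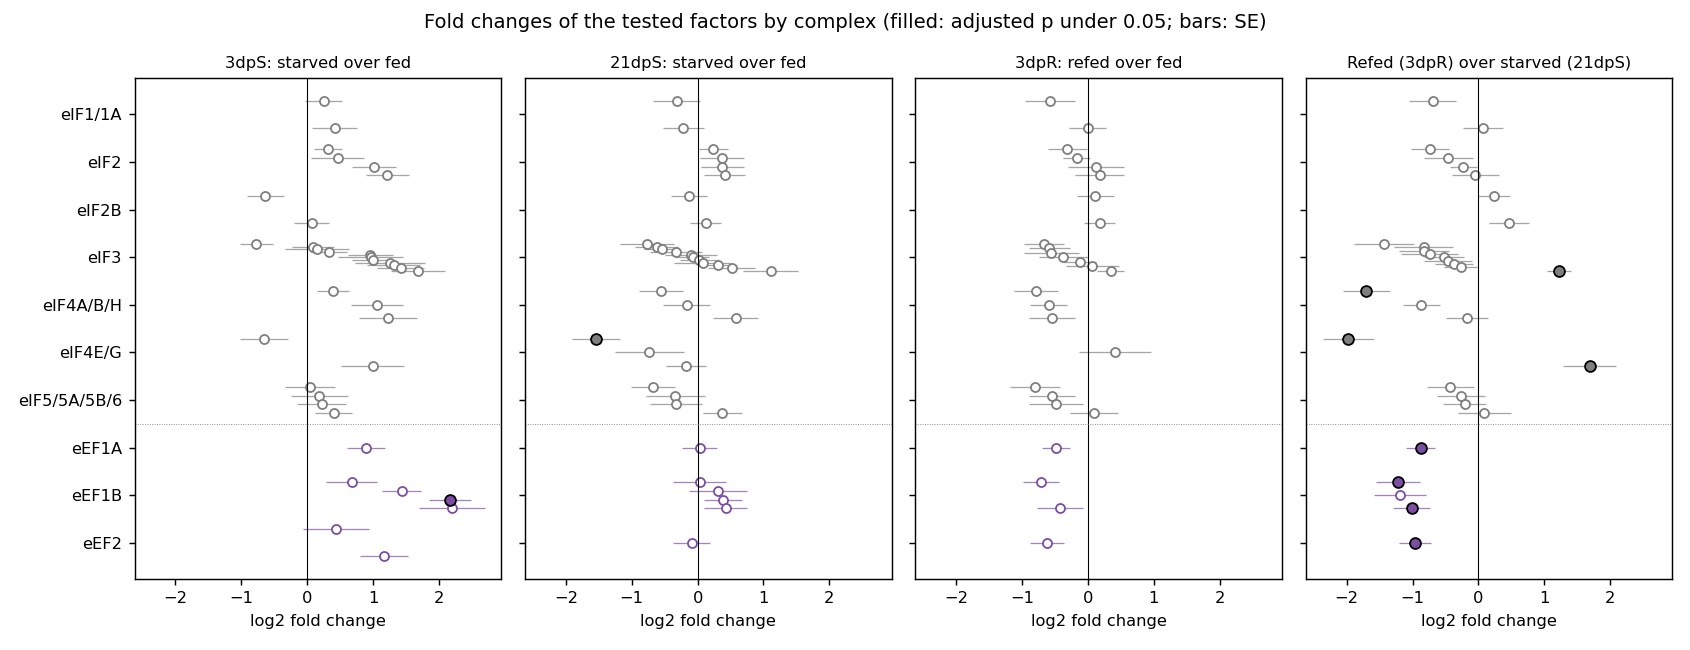
Log2 fold change of every tested initiation and elongation factor, sorted by complex, in 4 comparisons (points, with SE as bars; filled points have an adjusted p under 0.05; grey, initiation; purple, elongation). The tested inhibitors of eIF4E and the modifier EEF2K are not shown. The elongation factors lie between 0.44 and 2.20 at 3dpS, between -0.09 and 0.43 at 21dpS, below 0 at 3dpR, and between -1.22 and -0.87 for refed against 21dpS starved fish.

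After 21 days of starvation the factors were split in direction. Of 37 tested, 18 had a higher and 19 a lower mean in starved fish (48% of all genes were higher). The median log2 difference was -0.13 for 29 initiation factors and 0.17 for 6 elongation factors, and over all genes it was -0.02. Among factors not overlapping another protein-coding gene, or not matched, the median was -0.17 over 25 initiation and 0.35 over 4 elongation factors. The 1 gene called, against a background of 2.81% (90 of 3203) in either direction and 1.65% lower, was EIF4E3, a member of the eIF4E family that binds the cap in an unusual way, which was lower in starved fish. Enterocyte markers moved with this comparison: their sum was 1869 to 2805 CPM in fed and 1078 to 1471 CPM in starved fish, all 7 were lower at an unadjusted p under 0.05, and 2 of them (apoa4b.1 and apoa4b.2) were called. Of the exocrine pancreas markers 5 were tested, all were lower and 2 (CPA1 and prss59.1) were called. Library totals separated too, at 532047 to 560381 assigned reads in fed and 574874 to 699321 in starved fish. The part of library size and of these markers in the result was not tested.

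EIF4E3 was at 44.5, 49.2, 25.5 and 24.7 CPM in the 4 fed fish and at 15.3, 10.5, 11.1 and 14.5 CPM in the 4 starved fish. No starved fish reached the lowest fed fish, and the starved counts were 6 to 10 reads. The means were 36.0 ± 12.7 and 12.8 ± 2.41 CPM (SD, n = 4 each), 2.91-fold lower in starved fish (log2 fold change -1.54, SE 0.37, edgeR adjusted p = 0.0361). EIF4E3 passed the low-count filter through its fed libraries alone. The call was lost in 6 of the 8 fits that left out 1 library, namely without fed replicates 1 or 2 or any 1 of the starved fish, with adjusted p from 0.0766 to 0.103 and log2 fold changes from -1.61 to -1.34. In a single fit of all 23 libraries its adjusted p was 0.0681.

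**Figure D3:**
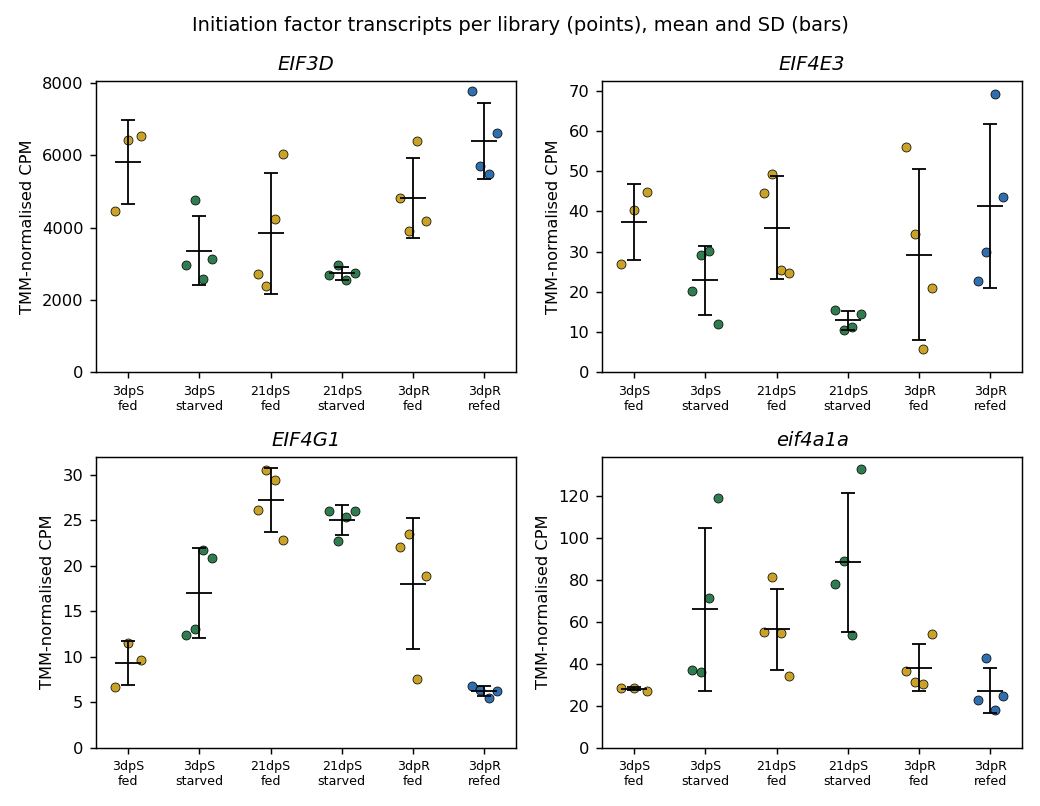
Level of the 4 initiation factor transcripts called in any comparison (TMM-normalised CPM, linear axes from 0) in each library, with group mean and SD as bars. EIF4E3 is lower in all 4 starved fish at 21dpS than in the fed fish, EIF4G1 is at 5.47 to 6.81 CPM in refed fish, and EIF3D and eif4a1a separate refed from 21dpS starved fish in opposite directions.

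The elongation factors that separated the groups at 3dpS overlapped at 21dpS. The eef1da levels were 49.1, 42.4, 25.5 and 26.6 CPM in fed and 44.4, 52.3, 38.0 and 69.4 CPM in starved fish (log2 difference 0.43, adjusted p = 0.488). The eef1a1l1 levels spanned 461 to 1073 CPM in fed and 699 to 973 CPM in starved fish, a difference of 0.03 (adjusted p = 0.974). Those of eef2b spanned 144 to 290 and 136 to 236 CPM, a difference of -0.09 (adjusted p = 0.895). EEF1G differed by 0.39, EEF1D by 0.31 and EEF1B2 by 0.03 (adjusted p = 0.473, 0.741 and 0.982).

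EIF3G and eif5b had the next smallest p-values at 21dpS without passing the test. EIF3G, an RNA-binding subunit of eIF3, was at 7.67, 6.79, 19.6 and 7.59 CPM in fed and 23, 19.2, 28.5 and 21.7 CPM in starved fish (log2 difference 1.11, edgeR adjusted p = 0.151, exact permutation p = 0.0571). A single fed fish, replicate 3, reached into the starved range. The fed libraries alone would not have taken EIF3G through the low-count filter. The GTPase eif5b, which joins the ribosomal subunits, was at 38.0 to 91.6 CPM in fed and 26.9 to 50.6 CPM in starved fish (log2 difference -0.68, edgeR adjusted p = 0.267). Of the eIF4F group 5 of 6 tested genes were lower, with a median of -0.37.

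Between refed fish and fed controls of the same day no factor was called at 3dpR, against a background of 0.0349% (1 of 2862). By edgeR 6 factors had an unadjusted p under 0.05, all lower in refed fish, against 7.51% of all genes in either direction and 4.4% lower, and DESeq2 called none of 43 either. The elongation factors tested were 4, all with a lower mean in refed fish (median log2 difference -0.55). Of 23 initiation factors 15 were lower (median -0.31). Among factors not overlapping another protein-coding gene, or not matched, the median was -0.48 over 3 elongation and -0.43 over 20 initiation factors. The 3 overlapping initiation factors were all higher, with a median of 0.18. Of all genes 52% were lower, with a median of -0.02. Cell type markers moved with this comparison, none of them called. All 9 exocrine pancreas markers tested were lower in refed fish, 7 at an unadjusted p under 0.05. Enterocyte markers were lower for 5 of 7, 2 at such a p, and higher for 2. The 3 liver and 2 leukocyte markers tested were lower, 1 of each at such a p, and the 1 ovary or testis marker tested was higher. Their part in the result was not tested.

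EEF1G was at 150, 241, 114 and 172 CPM in fed and 102, 117, 82.0 and 130 CPM in refed fish (log2 difference -0.72, SE 0.27, edgeR adjusted p = 0.651). The 2 groups overlapped in the lowest fed fish. For eef2b the fed levels were 121, 203, 124 and 130 CPM and the refed levels 90.8, 111, 102 and 89.1 CPM, which do not overlap (log2 difference -0.62, edgeR adjusted p = 0.651). For eef1a1l1 they were 576, 711, 534 and 555 CPM against 366, 522, 527 and 360 CPM, again without overlap (log2 difference -0.48, edgeR adjusted p = 0.653). These 2 were the only factors without overlap at 3dpR, against 4.72% of all genes tested. Among initiation factors EIF4B, eif4a1b and EIF3A had the smallest p, with log2 differences of -0.79, -0.60 and -0.67 (edgeR adjusted p = 0.653 each), and each overlapped between the groups.

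The refed fish had passed through the same starvation as the 21dpS starved fish, and setting them against each other asked what 3 days of food changed. Here 8 of 34 tested factors were called, 2 higher and 6 lower in refed fish, against a background of 11.3% of all genes (5.22% higher, 6.12% lower). A lower mean in refed fish was found for 26 of the 34 and for 49.9% of all genes, and 9 did not overlap between the groups, against 17.3%. Elongation factors made up 4 of the 6 that fell: eef1a1l1, eef2b, EEF1G and eef1da. The other 2 were the eIF4F scaffold EIF4G1 and the helicase eif4a1a, while EIF4E3 and the count listed for EIF3D rose. The comparison also spans separate sampling days, and the fed controls of those days are compared below.

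For eef1a1l1 the 21dpS starved fish had 735, 699, 973 and 863 CPM and the refed fish 366, 522, 527 and 360 CPM. All refed fish lay below all starved fish, at 444 ± 93.3 against 818 ± 125 CPM (SD, n = 4 each), 1.83-fold lower (log2 fold change -0.87, SE 0.22, edgeR adjusted p = 0.0215). The eef2b levels were 136, 215, 182 and 236 CPM in starved and 90.8, 111, 102 and 89.1 CPM in refed fish. They did not overlap, and the mean was 1.94-fold lower (log2 fold change -0.96, SE 0.25, edgeR adjusted p = 0.0221).

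EEF1G was at 130, 237, 206 and 302 CPM in starved and 102, 117, 82.0 and 130 CPM in refed fish. The highest refed fish met the lowest starved fish, with a log2 fold change of -1.02 (SE 0.28, edgeR adjusted p = 0.0289, exact permutation p = 0.0571). For eef1da the levels were 44.4, 52.3, 38.0 and 69.4 CPM in starved and 20.4, 32.0, 16.4 and 18.6 CPM in refed fish, without overlap and 2.33-fold lower (log2 fold change -1.22, SE 0.33, edgeR adjusted p = 0.0292). Its refed libraries alone would not have taken it through the low-count filter. The fifth tested elongation factor, EEF1D, went the same way without passing the test (log2 difference -1.19, edgeR adjusted p = 0.0584). The median over these 5 was -1.02, against 0.00 over all genes. EEF1B2 had too few reads for this comparison.

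EIF4G1, which bridges eIF4E, eIF4A and eIF3, was at 26.0, 22.7, 25.4 and 26.0 CPM in the 21dpS starved fish and at 6.81, 6.40, 5.47 and 6.21 CPM in refed fish. The refed values are 3 reads in each library, exactly at the floor, against 13 to 18 reads in starved fish. It was 3.93-fold lower (log2 fold change -1.98, SE 0.39, edgeR adjusted p = 0.0063), and it passed the low-count filter through the starved libraries alone. The helicase eif4a1a was at 78.1, 88.9, 53.9 and 133 CPM in starved and 22.7, 42.6, 18.2 and 24.9 CPM in refed fish, 3.25-fold lower (log2 fold change -1.70, SE 0.35, edgeR adjusted p = 0.00856). Its groups did not overlap either. The paralogue eif4a1b differed by -0.17 (edgeR adjusted p = 0.773), and EIF4B by -0.87 (edgeR adjusted p = 0.0543).

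EIF4E3 rose from 12.8 ± 2.41 to 41.3 ± 20.5 CPM (SD, n = 4 each; 3.23-fold, log2 fold change 1.69, SE 0.40, edgeR adjusted p = 0.0174). The refed fish spread widely, at 22.7, 29.9, 69.3 and 43.5 CPM, and all lay above the highest starved fish at 15.3 CPM. This gene passed the filter through its refed libraries alone. The count listed for EIF3D went from 2685, 2975, 2545 and 2736 CPM in starved to 7778, 5708, 5477 and 6617 CPM in refed fish, 2.34-fold higher (log2 fold change 1.22, SE 0.18, edgeR adjusted p = 0.00129). Its neighbour sult3st1 stood at 989 ± 212 CPM in starved and 1403 ± 144 CPM in refed fish (SD, n = 4 each), a log2 difference of 0.50 (SE 0.20, edgeR adjusted p = 0.115). Of the 8 other eIF3 genes tested all had a lower mean in refed fish. Over 9 eIF3 genes the median was -0.52, and the lowest was EIF3M at -1.43 (edgeR adjusted p = 0.0511). EIF3G, like EIF4G1, entered through the starved libraries alone, which favours a lower mean in refed fish. Of the 31 factors not counted as entering through 1 group 7 were higher, with a median of -0.46. The called eef1da is among these 31, although it needed its starved libraries to meet the filter.

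EIF3D, EIF4G1 and eif4a1a kept their calls in each of the 8 fits that left out 1 library. The elongation factors did not: without 21dpS starved replicate 4 only 3 factors were called, and without refed replicates 1 or 4 only 4, none of them an elongation factor. The calls over all genes dropped too, from 341 to 117, 191 and 140 in those fits. In those 3 fits the log2 fold changes of eef1a1l1, eef2b, EEF1G and eef1da stayed between -1.17 and -0.77, with adjusted p from 0.0519 to 0.0920. EIF4E3 missed the threshold without starved replicate 4 or refed replicate 3 (adjusted p = 0.0522 and 0.0548). Single calls were lost for eef1da and EEF1G without refed replicate 3 (adjusted p = 0.0769 and 0.0811), for EEF1G without starved replicate 2 (0.0547) and for eef1a1l1 without starved replicate 3 (0.0517). Library size moved with this comparison. The refed libraries held 500205 to 536070 reads and 10472 to 11728 detected genes, the starved ones 574874 to 699321 reads and 11804 to 12584 genes, and neither range overlaps the other. Liver markers (6 of 6 matched, none at 0) were at 24.9 to 231 CPM in refed and 149 to 399 CPM in starved fish, exocrine pancreas markers at 284 to 812 and 141 to 368 CPM, and leukocyte markers at 132 to 203 and 197 to 281 CPM. The part of depth and of these cell types in the result was not tested.

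Averaged per library on the log2 CPM scale, the 7 elongation factors kept by the filter over all 23 libraries stood at 5.37 ± 0.29 (SD, n = 3) in 3dpS fed and 6.54 ± 0.21 (SD, n = 4) in 3dpS starved fish. Their level was 5.99 ± 0.29 and 6.34 ± 0.26 in fed and starved fish at 21dpS, and 5.81 ± 0.27 and 5.64 ± 0.26 in fed and refed fish at 3dpR. Over 30 initiation factors the same averages were 5.61 ± 0.11 and 6.05 ± 0.13 at 3dpS, 5.91 ± 0.29 and 5.86 ± 0.10 at 21dpS, and 5.76 ± 0.30 and 5.48 ± 0.20 at 3dpR. Of the 3 diet comparisons only that at 3dpS separates the groups completely in both roles, with elongation at 5.19 to 5.71 in fed and 6.41 to 6.86 in starved fish. These averages mix genes of different lengths, so they compare groups, not the 2 roles.

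**Figure D4:**
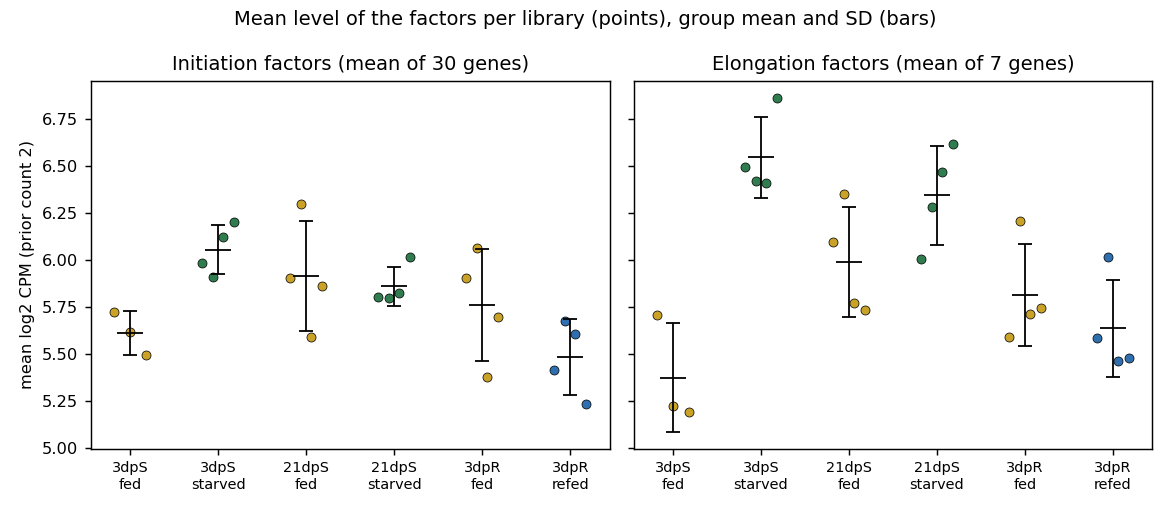
Mean log2 CPM (prior count 2) of the 30 initiation factors and the 7 elongation factors in each library, with group mean and SD as bars. The 3dpS fed controls have the lowest elongation mean of the 6 groups (5.37) and the 3dpS starved fish the highest (6.54).

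Between the starved fish of 3 and 21 days no factor was called by edgeR or by DESeq2, against a background of 1.86% (67 of 3609). Of 38 factors 29 had a lower mean at 21dpS, against 52.1% of all genes, with a median of -0.25. An unadjusted p under 0.05 was found for 6, all lower, and for 20.1% of all genes, 10.4% lower. EIF3F was lowest in p, at 29.5 ± 3.91 CPM at 3dpS and 12.3 ± 5.50 CPM at 21dpS (SD, n = 4 each; log2 difference -1.30, edgeR adjusted p = 0.0828). All 10 exocrine pancreas markers were called lower at 21dpS (median log2 fold change -3.44), their sum being 1259 to 2923 CPM at 3dpS and 141 to 368 CPM at 21dpS. The 7 enterocyte markers had lower means too, 3 of them at an unadjusted p under 0.05 and none called. Their part in the shift of the factors was not tested.

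The fed controls were also compared between days. From 3dpS to 21dpS 26 of 35 factors had a higher mean in fed fish, against 51.2% of all genes, with a median of 0.30 and 0.74 over the 5 elongation factors, and none was called by edgeR, against a background of 0.0588% (2 of 3401). By unadjusted p under 0.05 there were 8 higher and 1 lower (13.8% of all genes, 7.44% higher and 6.38% lower), and 7 of 35 did not overlap, against 12.3% of all genes. The filter shares in these counts, since eef1da, EIF3F, EIF4G1 and EIF4G2 entered through the 21dpS libraries alone, and of the 31 others 22 were higher, with a median of 0.26. EIF4G1, one of those 4, was at 9.28 ± 2.40 CPM at 3dpS (n = 3) and 27.2 ± 3.51 CPM at 21dpS (n = 4, SD each; log2 difference 1.53, edgeR adjusted p = 0.183), and eef1da, another, was at 13.6 ± 2.21 and 35.9 ± 11.7 CPM (log2 difference 1.41, edgeR adjusted p = 0.196). The 3dpS fed controls had the lowest mean of the 3 fed groups for eef1da, EEF1G, EEF1B2, eef1a1l1 and eef2b. They share in the 3dpS diet comparison. Library totals were 596487 to 712850 assigned reads in fed fish at 3dpS and 532047 to 560381 at 21dpS, without overlap. The part of library size in this shift was not tested. From 21dpS to 3dpR the fed controls gave 25 of 34 lower (52% of all genes), a median of -0.29, and no factor either called or at an unadjusted p under 0.05 (background 0%, with 5.2% at such a p). Elongation factors were lower for 4 of 5 tested there, with a median of -0.39. The refed and 21dpS starved fish compared above span the same days. From 3dpS to 3dpR none was called either (background 0%), and 4 of 33 had such a p, against 6.26% of all genes.

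Whether the diet effect itself differed between time points was tested in 1 edgeR fit of all 23 libraries, with 41 factors among 4628 genes. For 4 factors the effect at 3dpR was below that at 3dpS, against a background of 0.929% of genes called in either direction and 0.519% called lower: eef1da by -2.52 (adjusted p = 0.00954), EIF4G1 by -2.38 (adjusted p = 0.0308), EEF1G by -2.08 (adjusted p = 0.0124) and eef2b by -1.72 (adjusted p = 0.0483). An unadjusted p under 0.05 was found for 15 of 41 factors and 14.9% of all genes. For eef1da the difference stayed past the threshold without any 1 library of those days. EEF1G missed it without 3dpS fed replicate 2 or 3 (adjusted p = 0.0621 and 0.0543). EIF4G1 passed only without 3dpS fed replicate 1, 3dpS starved replicates 1 or 2, 3dpR fed replicates 3 or 4 or refed replicate 2, and otherwise had an adjusted p of 0.0521 to 0.102. For eef2b the test was passed only without 3dpS fed replicate 1, 3dpS starved replicate 2, 3dpR fed replicate 3 or refed replicate 2, with an adjusted p of 0.0539 to 0.212 without the others and 0.0502 with another scaling of the libraries. Between 21dpS and 3dpS no factor was called by edgeR (background 0%). At an unadjusted p under 0.05 there were 10, all lower at 21dpS, against 8.64% of all genes and 4.41% lower, with EIF3F (-2.12), eef1da (-1.66) and EEF1B2 (-2.09) first and a median of -0.66. Between 3dpR and 21dpS none was called (background 0.0432%) and 5 had such a p, against 9.94% of all genes, led by EIF4E3 with a difference of 1.95 (adjusted p = 0.275).

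The inhibitors of eIF4E, which block its meeting with eIF4G, showed no change past the test. EIF4EBP2 had the most reads of them and was at 109, 111 and 132 CPM in fed and 152, 131, 121 and 136 CPM in starved fish at 3dpS (log2 difference 0.22, edgeR adjusted p = 0.741). It differed by -0.16 at 21dpS, by -0.02 at 3dpR and by 0.22 between refed and 21dpS starved fish (edgeR adjusted p = 0.774, 0.984 and 0.588). From 3dpS to 21dpS its level in starved fish went from 135 ± 12.9 to 88.1 ± 14.1 CPM without overlap (SD, n = 4 each; log2 difference -0.66, edgeR adjusted p = 0.150). EIF4EBP3 (ENSDARG00000041607) varied widely within groups, from 0 to 67.9 CPM among the 21dpS fed controls, and differed by 0.29, 0.11 and -0.39 in the 3 diet comparisons (edgeR adjusted p = 0.763, 0.962 and 0.884). The best-known member, eif4ebp1, had 150 reads in all, between 1.82 and 23.8 CPM per library, and entered none of the comparisons of 2 groups. In the edgeR fit of all libraries its diet effect did not differ between time points past the test. The adjusted p was 0.800 for 21dpS against 3dpS, 0.983 for 3dpR against 21dpS and 0.718 for 3dpR against 3dpS.

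EEF2K, the kinase that switches eEF2 off, was the only modifier with enough reads to test. It was at 31.9, 24.4 and 36.9 CPM in fed and 12.4, 16.0, 26.6 and 17.9 CPM in starved fish at 3dpS (log2 difference -0.74, SE 0.36, edgeR adjusted p = 0.373), opposite in sign to its substrate eef2b. In the 21dpS fed controls it ranged from 0 to 19.9 CPM. The methyltransferases EEF1AKMT1 (41 reads in all, over il17d) and EEF1AKMT2 (8 reads) were too low to compare.

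A list of 109 other translation genes was drawn up from textbook knowledge: termination and poly(A)-binding factors, the integrated stress response, the mTORC1 pathway, hypusine and diphthamide synthesis, and cytosolic aminoacyl-tRNA synthetases. Of 75 IDs matched, 28 were tested at 3dpS (20 higher, 8 lower), 25 at 21dpS (13 and 12) and 20 at 3dpR (5 and 15), and none was called in those comparisons. Between refed and 21dpS starved fish 22 were tested, 19 were lower in refed fish (49.9% of all genes), and 3 were called, all lower, against 6.12% of all genes called lower. They were ATF3, a transcription factor of the stress response (26.9 ± 7.14 against 71.1 ± 27.8 CPM, SD, n = 4 each; log2 fold change -1.40, edgeR adjusted p = 0.0190), RPS6, a ribosomal protein phosphorylated downstream of mTORC1 (-1.09, edgeR adjusted p = 0.0375), and SESN1, a sestrin that restrains mTORC1 (-1.45, edgeR adjusted p = 0.0342). The medians of the 5 sublists in that comparison ran from -0.57 to -0.19. In the fed controls SESN1 was also lower at 3dpR than at 21dpS, with an unadjusted edgeR p under 0.05 but no call. It was the only 1 of the 21 listed genes tested there with such a p.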

How the data were processed

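Single-end 50-base reads of ribosomal RNA-depleted intestine libraries were trimmed with Trim Galore, aligned with STAR to GRCz10 and counted per gene with HTSeq by the authors, who deposited raw, unnormalised counts; the labels also name CASAVA 1.8, DESeq2 3.10 and R 3.6. The strand option and the annotation release are not given in the sources used here. Symbols came from a gene ID table.

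Only the libraries of the groups compared entered each edgeR fit (edgeR 4.0.16, R 4.3.3, filterByExpr with min.count 10 and min.total.count 15, TMM factors, robust quasi-likelihood test, two-sided). P-values were adjusted by Benjamini-Hochberg over all genes tested, and a gene was called at an adjusted p under 0.05. CPM used TMM factors over the 23 libraries, log2 CPM a prior count of 2. The exact permutation test ran on the log2 CPM of a gene, with 0.0286 as the smallest p in these designs. The floor of 3 reads covers counting error only. The fits were tested on simulated data.

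Named genes are those called anywhere, the 3 initiation and 3 elongation factors of smallest p in each comparison of starved or refed with fed fish of the same day, the 3 with most reads per role group, and every tested member of the 4E-BP, eEF1A and eEF1B groups. Some other factors, such as EIF2B1, EEF2 and EIF3M, are given beside these, outside that rule. Gene and marker lists were chosen with earlier results of these data known. Alternatives were RLE factors, DESeq2 1.42.0, other filters, removal of the 100 genes with most reads, a tank block, a fit of all libraries and leaving out each library. Halving the even counts, and the alternatives of the tests between time points, were chosen after seeing the data.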

Additional observations from a re-analysis of the deposited data

Results flagged for a closer look

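In 5 of 90 groups of 4 fish, over 18 named genes, 1 fish lay far from the others by Dixon's criterion, which is 5.56%, where chance flags about 1 in 20 groups. Replicate 2 of the 3dpR fed controls had 203 CPM of eef2b against 121 to 130 CPM in the other fish, and 46.9 CPM of EEF1D against 10.5 to 16.2 CPM. Refed replicate 1 had 11.4 CPM of EIF2S1 (ENSDARG00000052178) against 25.5 to 27.7 CPM. Replicate 3 of the 21dpS fed controls had 19.6 CPM of EIF3G against 6.79 to 7.67 CPM. Replicate 4 of the 21dpS starved fish had 49.2 CPM of EIF3A against 68.9 to 69.8 CPM.

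The diet effect at 3dpR differed from that at 3dpS, by the interaction test, for eef1da (log2 difference of effects -2.52), EIF4G1 (-2.38), EEF1G (-2.08) and eef2b (-1.72).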

How the results depend on the processing

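At 3dpS 1 factor was called. The count was 2 with DESeq2 (EEF1G and eef2b), which gave an adjusted p for 19 factors. It was 4 without a filter on low counts and 3 in a fit of all 23 libraries. Over all genes these settings called 108 of 1710, 172 of 18968 and 69 of 4628, against 21 of 3953. With at least 10 reads in every library EEF1G alone was called, and 32 of 2381 genes in all. That setting did not test eef1da, and DESeq2 gave this gene no adjusted p. Leaving out 1 library gave 0 to 7 calls, with medians of 0.34 to 0.66 for initiation and 0.88 to 1.68 for elongation factors. At 21dpS 1 was called, against 2 without a filter, 0 with at least 10 reads in every library, 0 in the fit of all libraries and 0 to 1 with 1 library left out, where the medians ran from -0.15 to 0.09 and from 0.01 to 0.45. The setting of at least 10 reads in every library did not test EIF4E3. At 3dpR none was called, against 1 (EIF3J) without a filter, where the elongation median was -0.27, and leaving out 1 library gave medians of -0.31 to -0.07 and -0.66 to -0.38. Between refed and 21dpS starved fish 8 were called, 6 to 10 under the alternatives and 3 to 9 with 1 library left out. The 4 differences between time points became 3 with RLE factors and 1 to 6 with 1 library left out. Single factors were followed only in comparisons where they were called or among those of smallest p. None of these reversed under any setting run, and the other named values were not checked for sign. The cause of these changes was not tested.

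Tank numbers served as a replicate block, although fed and starved fish of one number shared no tank. The correlation of same-numbered deviations was -0.02 at 3dpS, 0.24 at 21dpS, -0.26 at 3dpR and -0.05 for refed against 21dpS starved fish. Tank numbers 1 and 2 gave the same value in each comparison, so it counts as 1 value, not 2. With the block the called factors were 1, 1, 0 and 8, the last sharing 7 with the fit without it (EEF1G left, adjusted p = 0.0629, and EIF4B entered).

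With 500205 to 1236436 assigned reads per library, factors of few reads, such as EIF4E or EIF6, could not be compared.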
